A study of Mus musculus with 18 samples.

Results

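Prostaglandins and leukotrienes are lipid mediators that cells make from arachidonic acid. The 10 genes described here encode the enzymes and the helper protein of this synthesis, together with the enzyme that breaks prostaglandins down. They were chosen by gene symbol, Ptgs1, Ptgs2, Ptges, Ptges2, Ptges3, Hpgd, Hpgds, Alox5, Alox5ap and Pla2g4a, and each was found in both expression tables, as 10 of 21441 genes. RNA sequencing covered 18 libraries, 9 of RAW264.7 cells, a macrophage-like mouse cell line, and 9 of mouse liver, with 3 control, 3 LPS and 3 LPS+MIC-1 libraries in each. LPS, or lipopolysaccharide, is a bacterial cell wall product that activates macrophages, and MIC-1 is moringa isothiocyanate-1, an electrophilic compound of Moringa oleifera seeds. The question of the design was how MIC-1 alters the response to LPS.

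The mice were wild-type C57BL/6 males. Control mice received vehicle and a saline injection. LPS mice were injected intraperitoneally with 10 mg/kg LPS, and LPS+MIC-1 mice were given 80 mg/kg MIC-1 in DMSO by gavage for 3 days before the same injection. Livers were taken 16 h after injection, the groups held 6 mice, of which 3 per group are represented in these values, and age was not given in the sources used here. The control cultures are called saline controls in the series text and solvent controls by the study, the LPS cultures received LPS, and the LPS+MIC-1 cultures LPS with 10 µM MIC-1; the series text gives the 10 µM for liver too. The labels of the macrophage samples repeat the strain and doses of the mouse experiment, so the LPS concentration and time of the cultures are not given there. MIC-1 without LPS was not among the groups, and nothing states whether the cultures were independent, so p-values measure only the spread between these libraries, which may be technical.

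The pathway begins when a phospholipase frees arachidonic acid from membranes. A cyclooxygenase then turns it into prostaglandin H, from which separate synthases make prostaglandin E, prostaglandin D and other prostanoids, or a lipoxygenase helped by a membrane protein turns it into leukotrienes. Activated macrophages are known for inducing the cyclooxygenase gene Ptgs2 and the prostaglandin E synthase gene Ptges.

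The genes do not overlap each other in the mm9 mouse genome, which the deposited values are based on. Each is annotated as protein coding. Ptgs2 and Pla2g4a lie close together on chromosome 1, on opposite strands. Ptgs2 spans chr1:151947254-151955140 on the plus strand and Pla2g4a chr1:151676748-151808420 on the minus strand. Ptgs1 spans chr2:36085946-36107792 (plus), Ptges chr2:30744991-30785383 (minus) and Ptges2 chr2:32251416-32258259 (plus). The others are Ptges3 on chromosome 10, Hpgd on chromosome 8, Hpgds and Alox5 on chromosome 6 and Alox5ap on chromosome 5.

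Promoter sequences of RefSeq on build GRCm38.p6, each 250 bases before to 50 after a gene start, were at hand for 9 of the 10 genes, with 10 promoters since Pla2g4a has 2, and Alox5ap had no entry. The promoters of the genes whose levels the results turn on are shown from 200 bases before the start to 30 bases from it on, with the letters of motif matches in capitals. The strand printed is that of the gene.
Ptgs2, chr1:150099831-150100060, plus strand: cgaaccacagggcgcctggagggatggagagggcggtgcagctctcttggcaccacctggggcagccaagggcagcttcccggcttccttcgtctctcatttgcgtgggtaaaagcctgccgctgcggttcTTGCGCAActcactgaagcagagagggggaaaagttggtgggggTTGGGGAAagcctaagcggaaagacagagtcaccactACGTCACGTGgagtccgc
Ptges, chr2:30903268-30903497, minus strand: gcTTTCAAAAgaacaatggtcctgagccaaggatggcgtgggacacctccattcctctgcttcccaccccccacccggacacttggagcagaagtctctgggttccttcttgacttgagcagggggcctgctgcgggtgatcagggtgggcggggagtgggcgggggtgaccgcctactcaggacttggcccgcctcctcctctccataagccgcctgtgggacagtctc
Ptgs1, chr2:36230226-36230455, plus strand: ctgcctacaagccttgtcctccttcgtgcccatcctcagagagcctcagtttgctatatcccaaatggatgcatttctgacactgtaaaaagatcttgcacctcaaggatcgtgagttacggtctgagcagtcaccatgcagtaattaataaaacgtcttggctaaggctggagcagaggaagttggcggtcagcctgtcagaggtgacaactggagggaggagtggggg
Ptges2, chr2:32395690-32395919, plus strand: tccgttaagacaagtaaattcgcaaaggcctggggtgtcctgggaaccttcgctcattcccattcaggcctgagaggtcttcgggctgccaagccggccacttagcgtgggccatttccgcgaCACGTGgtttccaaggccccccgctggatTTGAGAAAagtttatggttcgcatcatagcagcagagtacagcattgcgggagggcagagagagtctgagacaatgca

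The Ptgs2 window held 2 matches to the C/EBP letters TTNNGNAA, at bases -69 to -62 and -25 to -18 from the start, and the core of a cyclic AMP response element (TGACGT, here on the other strand) at 13 to 18 that overlaps the E-box CACGTG at 17 to 22. Base 1 is the start itself and base -1 the one before it. Both strands of each window of 300 bases were searched for these motifs and for AP-1 (TGANTCA), the antioxidant response element core (TGACNNNGC), the TATA box (TATAAA) and NF-kB (by name). Of all 32851 RefSeq promoters, 40.7% held the C/EBP letters, 7.51% the cyclic AMP response element core, 7.15% the E-box, 7.81% AP-1, 12.4% the antioxidant response element core, 13.6% the TATA box and 8.46% NF-kB. The C/EBP letters were found in 6 of the 10 promoters, among them Ptges (-198 to -191), Ptges2 (-48 to -41) and Hpgds. The E-box was also found in Ptges2 (-77 to -72), and the antioxidant response element core (8 to 16) and NF-kB (-87 to -78) were found in Ptges3 alone, while no AP-1 match was found in any of the 10 and none of the motifs in Ptgs1 or Alox5. The TATA box letters were found in 2 of the 10, in Hpgd (5 to 10) and 1 promoter of Pla2g4a (-200 to -195). These matches are descriptions of letters, not binding sites.

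Before the macrophage values, 1 library has to be set apart. Library numbers here follow the order of the value columns within a treatment, as the column names hold none. LPS library 2 lay with the controls: its median absolute difference over the 9905 tested genes was 0.0732 in log2 from control library 2, close to the 0.0671 between control libraries 1 and 3, and 0.695 and 0.696 from LPS libraries 1 and 3, which differed by 0.0913 from each other. The study's own macrophage analysis used 2 LPS libraries. The macrophage comparisons with LPS are therefore given over all 9 libraries and over the 8 without LPS library 2. Libraries 1 and 3 were also the closest pair in the control and LPS+MIC-1 cultures, and the comparisons with LPS over 8 libraries rest on such a pair. Liver LPS library 2 also differed from libraries 1 and 3, by 0.529 and 0.552, where these differed by 0.162, but it was 0.489 to 0.591 from the controls. Liver control library 1 (0.427 and 0.477 from the other two, which differed by 0.196) and liver LPS+MIC-1 library 2 (0.350 and 0.351, against 0.112) also stood apart within their groups. Values are FPKM (fragments per kilobase of transcript at a common depth, as scaled by the authors), so levels are comparable between genes per length. Log2FC is the difference of mean log2(FPKM + 0.5), which understates the change of low genes, with its standard error (SE). Printed fold values and fractions of another group's level are ratios of mean FPKM, while the fold of a call refers to the Log2FC. The 2 measures diverge where the libraries of a group differ widely. A call is an absolute Log2FC above 1 with an adjusted p-value below 0.01 in macrophages and below 0.05 in liver, from limma over all genes with a mean FPKM above 1.

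The macrophage cultures expressed the whole synthesis route from arachidonic acid to prostaglandin E, and 9 of the 10 genes passed the filter. In control cells Ptges3 (235 ± 31.9 FPKM, SD, n = 3), Alox5ap (222 ± 30.9) and Pla2g4a (89.7 ± 11.9) were the highest, with no separation between Ptges3 and Alox5ap, whose ranges overlapped. Ptgs2 followed at 31.4 ± 2.31 FPKM, then Hpgds at 16.4 ± 0.698 and Ptges2 at 15.1 ± 1.2, which overlapped. Alox5 (5.67 ± 1.94) and Ptgs1 (3.48 ± 1.73) overlapped as well, and Ptges stood at 1.66 ± 0.282 FPKM. With LPS+MIC-1, Ptgs2 was the highest of the 10 in every library, and Ptgs1 stood above Ptges2 in every library, where in control cells it stood below. The authors' mean normalized counts over the 9 libraries were 305 to 44368 for the 9 genes and 2.48 for Hpgd.

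**Figure D1:**
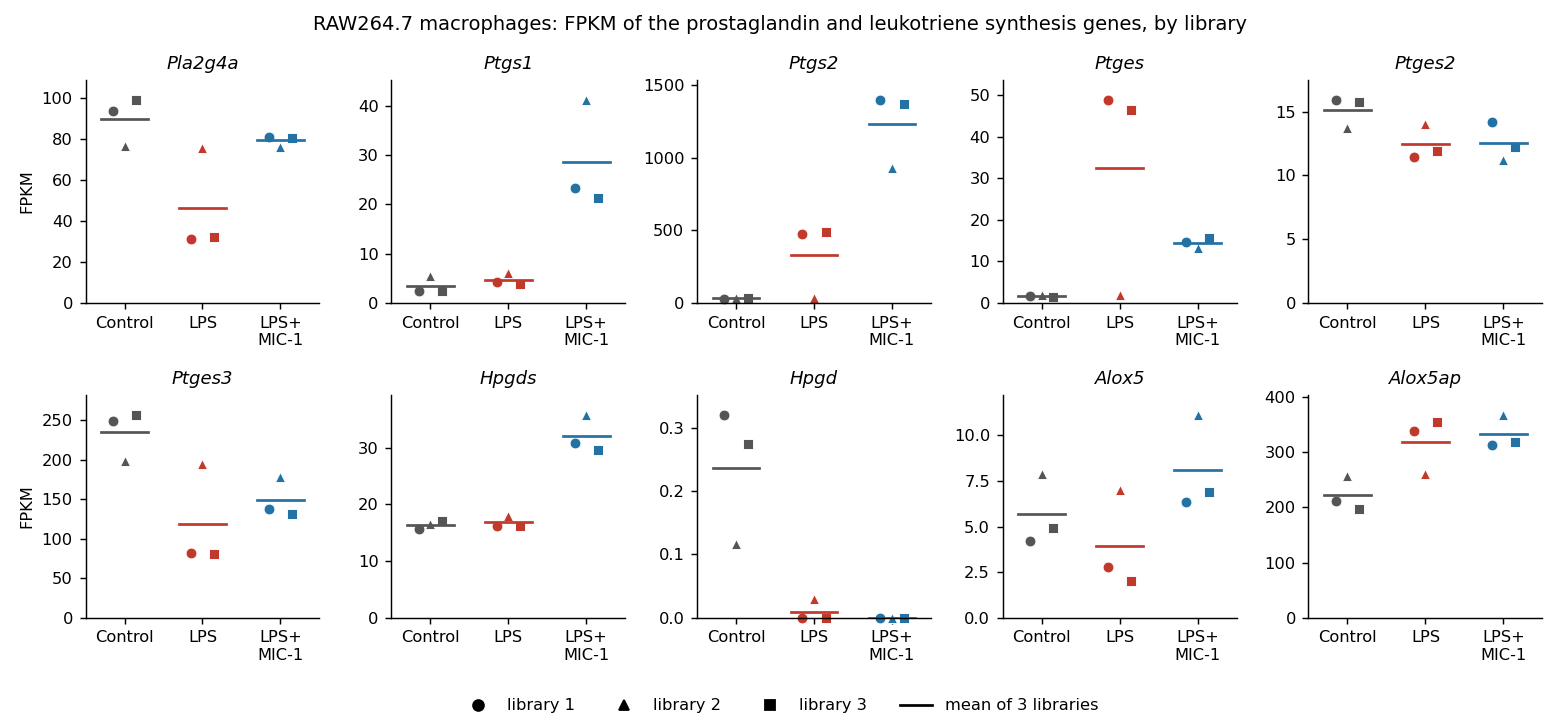
Each panel shows the FPKM of 1 gene (vertical axis, from 0, a scale of its own) in the control, LPS and LPS+MIC-1 macrophage libraries; symbols mark the library number and lines the mean of 3 libraries. LPS library 2 sits at the control level in the panels of Ptgs2, Ptges, Ptges3 and Pla2g4a, and Ptgs1 and Ptgs2 are highest in all 3 LPS+MIC-1 libraries.

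The counts of calls depended on LPS library 2. Between LPS and control, 0 of the 9 genes were called over the 9 libraries, where 0% of all tested genes were (smallest adjusted p = 0.0777; 5 of the 9 and 4928 of all genes had an unadjusted p below 0.05). Over the 8 libraries 4 of 9 were called, Ptgs2 and Ptges higher and Ptges3 and Pla2g4a lower with LPS, against 34.2% of all genes. For LPS+MIC-1 against LPS, 1 of 9 was called over the 9 libraries (Ptgs1, higher; 3.87% of all genes) and 5 of 9 over the 8 libraries (Ptgs1, Ptgs2, Alox5 and Pla2g4a higher, Ptges lower; 23.3% of all genes). For LPS+MIC-1 against control, 2 of 9 were called over the 9 libraries (Ptgs1 and Ptgs2; 5.59% of all genes) and 3 of 9 over the 8 (these and Ptges; 15.7% of all genes), all higher. The 3 comparisons share libraries and are not independent of each other. The exact two-sided permutation test of a single gene cannot go below p = 0.1 with 3 against 3 libraries or below 0.2 with 2 against 3, so it gave no call. Separate ranges are also common here, since over the 8 libraries 85.6% of all genes did not overlap between LPS and control and 80.3% not between LPS+MIC-1 and LPS. With libraries 1 and 3 of each treatment averaged and counted as 1 library, no gene was called in any macrophage comparison, the 10 included.

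Pla2g4a encodes the cytosolic phospholipase that frees arachidonic acid. Its control libraries read 93.8, 76.4 and 99.0 FPKM, its LPS libraries 31.1, 75.7 and 32.0, and its LPS+MIC-1 libraries 81.1, 76.2 and 80.6. LPS libraries 1 and 3 were below all others, and the LPS+MIC-1 libraries overlapped with the controls. Pla2g4a fell over the 8 libraries with LPS to 0.352 of the control (Log2FC -1.48, SE 0.11, adjusted p = 1.1e-05) and was 2.51-fold higher with LPS+MIC-1 than with LPS (Log2FC 1.31, SE 0.11, adjusted p = 3.05e-05). Over the 9 libraries neither difference was called (Log2FC -1.07, adjusted p = 0.0777, and 0.90, adjusted p = 0.0759). Against control the Log2FC with LPS+MIC-1 was -0.17 (95% interval -0.40 to 0.06 over the 8 libraries).

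The cyclooxygenase genes Ptgs1, in most tissues the constitutive form, and Ptgs2, the inducible form, were both highest with LPS+MIC-1. Ptgs2 read 29.2, 31.2 and 33.8 FPKM in the controls, 478, 31.4 and 487 with LPS, and 1399, 931 and 1373 when MIC-1 was given too. The lowest LPS+MIC-1 library stood above the highest LPS library, and LPS library 2 lay inside the control range. Ptgs2 rose over the 8 libraries 15.3-fold with LPS (Log2FC 3.92, SE 0.17, adjusted p = 1.51e-06) and a further 2.56-fold with LPS+MIC-1 (Log2FC 1.33, SE 0.17, adjusted p = 0.000279). Over the 9 libraries these were 10.6-fold (Log2FC 2.61, SE 0.93, adjusted p = 0.0777) and 3.72-fold (Log2FC 2.64, SE 0.93, adjusted p = 0.0773), neither called. The ratios of mean FPKM and the Log2FC diverge here, since LPS library 2 read 31.4 FPKM beside 478 and 487. Compared with control, Ptgs2 was 39.3-fold higher with LPS+MIC-1, called over the 9 libraries (Log2FC 5.25, SE 0.93, adjusted p = 0.00699) and over the 8 (adjusted p = 1.27e-06). Leaving out any 1 control or LPS+MIC-1 library instead moved its adjusted p to between 0.0216 and 0.0337, past the threshold.

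Ptgs1 read 2.51, 5.48 and 2.46 FPKM in the controls, 4.13, 5.96 and 3.85 with LPS, and 23.3, 41.1 and 21.3 when MIC-1 was given too. Control and LPS overlapped, and every LPS+MIC-1 library stood above them. Its mean with LPS+MIC-1 was 6.15-fold that with LPS over the 9 libraries (Log2FC 2.46, SE 0.35, adjusted p = 0.00366) and 7.16-fold over the 8 (Log2FC 2.63, SE 0.37, adjusted p = 0.00044). Ptgs1 was the member of the 10 that was called between LPS+MIC-1 and LPS in both sets of libraries, although without LPS library 1 or 3 or any 1 LPS+MIC-1 library its adjusted p was 0.0132 to 0.0181, past the threshold. Against control it was 8.21-fold higher (Log2FC 2.89, SE 0.35, adjusted p = 0.00164 over the 9 libraries and 0.000201 over the 8; 0.0121 and 0.0117, past the threshold, without control library 1 or 3), while between LPS and control the Log2FC was 0.43 (adjusted p = 0.325) over the 9 and 0.26 (adjusted p = 0.547) over the 8. The ratio of Ptgs2 to Ptgs1 FPKM did not follow the level of Ptgs2 alone. It was 5.69 to 13.8 in the controls, 116 and 126 in LPS libraries 1 and 3, 5.26 in LPS library 2 and 22.6 to 64.3 with LPS+MIC-1.

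The 3 prostaglandin E synthase genes moved in different ways. Ptges, the microsomal synthase usually induced together with Ptgs2, read 1.62, 1.96 and 1.40 FPKM in the controls, 48.8, 1.93 and 46.3 with LPS, and 14.6, 13.3 and 15.5 when MIC-1 was given too. LPS libraries 1 and 3 were the highest, the LPS+MIC-1 libraries lay between them and the controls, and LPS library 2 lay among the controls. Ptges rose 28.6-fold over the 8 libraries with LPS (Log2FC 4.48, SE 0.12, adjusted p = 4.4e-07) and was lower with LPS+MIC-1 than with LPS, at 0.304 of its level (Log2FC -1.68, SE 0.12, adjusted p = 1.64e-05). Over the 9 libraries the Log2FC was 3.05 between LPS and control (SE 1.02, adjusted p = 0.0777) and -0.25 between LPS+MIC-1 and LPS (SE 1.02, adjusted p = 0.877), so both calls rested on leaving out LPS library 2. Against control Ptges was 8.7-fold higher with LPS+MIC-1 (Log2FC 2.80, adjusted p = 2.73e-06 over the 8 libraries and 0.0787 over the 9). Ptgs2 and Ptges, both higher with LPS over the 8 libraries, were thus called in opposite directions between LPS+MIC-1 and LPS.

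Ptges3, the cytosolic synthase that is also a co-chaperone of Hsp90, read 250, 199 and 257 FPKM in the controls, 81.8, 195 and 80.5 with LPS, and 138, 178 and 131 when MIC-1 was given too. All LPS and LPS+MIC-1 libraries were below the controls, LPS library 2 only slightly. Over the 8 libraries Ptges3 fell to 0.345 of the control with LPS (Log2FC -1.52, SE 0.15, adjusted p = 5.63e-05). It was 1.84-fold higher with LPS+MIC-1 than with LPS, with a Log2FC of 0.86 (adjusted p = 0.0016) that stayed under the fold required for a call. Over the 9 libraries the Log2FC was -1.10 (adjusted p = 0.0777) with LPS and 0.44 (adjusted p = 0.356) between LPS+MIC-1 and LPS. Ptges2, the second membrane-bound synthase, stayed between 11.2 and 15.9 FPKM in all 9 libraries and was called in none of the comparisons (Log2FC -0.36 to 0.09 over the 8 libraries and -0.27 to 0.01 over the 9). The ratio of Ptges to Ptges3 was 0.00546 to 0.00989 in the controls, 0.596 and 0.575 in LPS libraries 1 and 3, 0.00988 in LPS library 2 and 0.0747 to 0.118 with LPS+MIC-1.

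Hpgds, the haematopoietic prostaglandin D synthase, read 15.7, 16.5 and 17.1 FPKM in the controls, 16.3, 18.0 and 16.2 with LPS, and 30.8, 35.8 and 29.6 when MIC-1 was given too. The controls and LPS overlapped and all 3 LPS+MIC-1 libraries were higher. The difference was 1.9-fold against LPS (Log2FC 0.91, SE 0.11, adjusted p = 0.00213) and 1.95-fold against control (Log2FC 0.94, SE 0.11, adjusted p = 0.00159) over the 9 libraries. Its p-values passed in both sets of libraries (adjusted p = 6.43e-05 against LPS over the 8), but its fold stayed just under that of a call. Hpgd, the dehydrogenase that inactivates prostaglandins, was near the detection limit, at 0.321, 0.116 and 0.274 FPKM in the controls, 0.0292 in LPS library 2 and listed at 0 in the other 5 libraries.

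Of the leukotriene genes, Alox5, the lipoxygenase, read 4.21, 7.88 and 4.92 FPKM in the controls, 2.79, 7.02 and 2.00 with LPS, and 6.35, 11.1 and 6.89 when MIC-1 was given too. Library 2 was the highest of each treatment. Over the 8 libraries Alox5 was 3.39-fold higher with LPS+MIC-1 than with LPS (Log2FC 1.55, SE 0.30, adjusted p = 0.00265), whereas between LPS and control it did not pass (Log2FC -1.06, adjusted p = 0.0137), and over the 9 libraries it passed in no comparison (LPS+MIC-1 against LPS, Log2FC 1.08, adjusted p = 0.103). Alox5ap, the membrane protein that presents arachidonic acid to the lipoxygenase, was 197 to 257 FPKM in the controls, 260 to 355 with LPS, and 314 to 368 when MIC-1 was given too. It was 1.56-fold higher with LPS over the 8 libraries (Log2FC 0.65, adjusted p = 0.00153), under the fold of a call, and over the 9 the Log2FC was 0.51 (adjusted p = 0.0777). The Log2FC of LPS+MIC-1 against LPS was -0.06 (95% interval -0.34 to 0.22) over the 8 and 0.08 (-0.30 to 0.45) over the 9. The ratio of Alox5ap to Alox5 was 32.6 to 50.3 in the controls, 122 and 177 in LPS libraries 1 and 3, 37.0 in LPS library 2 and 33.1 to 49.4 with LPS+MIC-1.

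**Figure D2:**
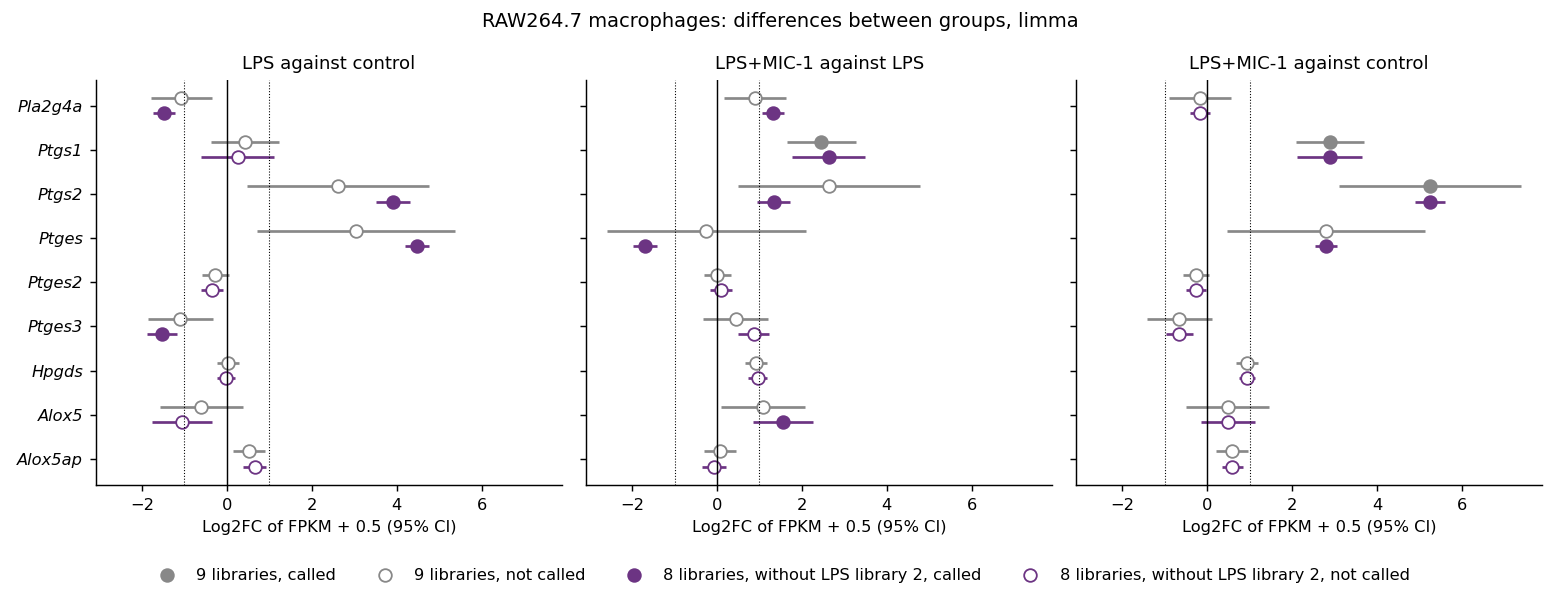
Points give the Log2FC of FPKM + 0.5 of the 9 tested genes in the 3 macrophage comparisons with 95% intervals, over 9 libraries (grey) and over the 8 without LPS library 2 (purple); filled points are calls, and dotted lines mark a Log2FC of 1 and -1. The intervals of Ptgs2 and Ptges are wide with LPS library 2 and narrow without it, and Ptgs1 is called in both sets in the middle and right panels.

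FPKM values summed to 1.13e+06 and 1.14e+06 in LPS libraries 3 and 1 against 557136 to 652486 in the other 7 macrophage libraries, and the directions of the smaller differences depended on how this was scaled. With each library rescaled to the same sum and LPS library 2 left out, all genes shifted together, their median Log2FC going from -0.02 to -0.93 between LPS and control and from 0.01 to 0.74 between LPS+MIC-1 and LPS. No called direction of the 10 genes turned with this. Ptgs2 (2.93) and Ptges (3.57) were still called higher and Ptges3 (-2.51) and Pla2g4a (-2.46) lower with LPS, with Ptges2 (-1.30) and Alox5 (-1.89) added as lower calls. The uncalled differences of Ptgs1, Hpgds and Alox5ap between LPS and control turned to -0.60, -0.97 and -0.34. Between LPS+MIC-1 and LPS, Ptges lost its call at -0.89, while Ptges3 (1.66) and Hpgds (1.73) gained one.

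The 56 other genes of the pathway were all in the tables, and 24 of them had a mean FPKM above 1 in macrophages. Over the 9 libraries 0 of these 24 were called between LPS and control, 4 between LPS+MIC-1 and LPS (3 higher, 1 lower) and 5 between LPS+MIC-1 and control (4 higher, 1 lower), where 0%, 3.87% and 5.59% of all genes were. Over the 8 libraries the numbers were 6 (4 higher, 2 lower), 9 (7 higher, 2 lower) and 10 (8 higher, 2 lower), beside 34.2%, 23.3% and 15.7% of all genes. Their median Log2FC between LPS+MIC-1 and LPS was 0.22 over the 8 libraries, where that of all genes was 0.01. The genes called over the 9 libraries between LPS+MIC-1 and LPS were Ptger2, Pla2g5, Acsl4 and Mgst3. Ptger2, a receptor of prostaglandin E, read 0.588, 0.936 and 0.472 FPKM in the controls, 1.04, 0.869 and 1.05 with LPS, and 14.5, 16.0 and 15.5 when MIC-1 was given too (Log2FC against LPS 3.42, SE 0.18, adjusted p = 0.000482, and 3.36 over the 8 libraries). Here all LPS libraries, library 2 included, lay near the controls and all LPS+MIC-1 libraries far above.

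Pla2g5, a secreted phospholipase, was 7.18 to 8.84 FPKM in the controls, 7.63 to 14.5 with LPS, and 54.6 to 61.0 when MIC-1 was given too (Log2FC against LPS 2.31, SE 0.22, adjusted p = 0.00084, and 2.06 over the 8 libraries). Acsl4, which activates arachidonic acid for its return to phospholipids, was 26.5 to 33.2 FPKM with LPS, and 69.8 to 79.4 when MIC-1 was given too (Log2FC 1.28, adjusted p = 0.00125, and 1.17 over the 8). Mgst3, a microsomal glutathione transferase that can make leukotriene C, was 36.8 to 57.7 FPKM with LPS, and 15.0 to 18.3 when MIC-1 was given too (Log2FC -1.39, adjusted p = 0.00313, and -1.19 over the 8). Of the 9 prostanoid receptors 4 were tested. Over the 8 libraries Ptgir, the prostacyclin receptor, rose with LPS (4.12 to 40.7 FPKM, Log2FC 3.25, adjusted p = 3.46e-05), and Ptger1, another receptor of prostaglandin E, fell with LPS (17.3 to 3.4 FPKM, Log2FC -2.19) and was higher with LPS+MIC-1 (17.5 FPKM, Log2FC 2.20 against LPS). Over the 9 libraries these were not called, with Log2FC of 2.41 for Ptgir (adjusted p = 0.0777) and -1.40 (adjusted p = 0.0874) and 1.42 (adjusted p = 0.107) for Ptger1. Ptgds, the other prostaglandin D synthase, was listed at 0 in all 9 macrophage libraries. The 5 genes whose pattern over the 9 libraries was most like that of Ptgs2 were Ercc1, Stap1, Lpxn, Csf3 and Ppard, with Pearson's r of 0.9955 to 0.9979 in log2(FPKM + 0.5), and these points share 3 treatments and a table.

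All 5 macrophage markers of the table were above 0 in each of the 9 macrophage libraries, with sums of 9452 to 11505 FPKM. Lyz2 made up most of this (8726 to 10746 FPKM), and other markers moved in opposite directions. Csf1r was 406 to 423 FPKM in the controls, 109, 409 and 108 with LPS, and 160 to 245 when MIC-1 was given too. Emr1 was 37.2 to 42.3 FPKM in the controls, 278, 41.2 and 290 with LPS, and 115 to 198 when MIC-1 was given too. The summed neutrophil markers were 3.21 to 5.29 FPKM in the controls, 5.56 to 43.9 with LPS, and 691 to 757 when MIC-1 was given too, where S100a8 alone was 651 to 718 FPKM and Ltf was listed at 0 throughout. The summed platelet markers, a cell type rich in Ptgs1, were 9.56 to 18.9, 10.0 to 19.6 and 48.4 to 108 FPKM, of which Pf4 made up most, while Gp1bb and Treml1 were listed at 0 in every macrophage library. These are transcripts of cultures of a cell line, and their relation to the difference of Ptgs1 was not tested.

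In liver the genes stood in another order, and those called with LPS encode a prostaglandin E synthase, a prostaglandin D synthase, the prostaglandin dehydrogenase and the helper protein of leukotriene synthesis. Ptges3 was again the highest, at 44.6 ± 8.87 FPKM in the controls (SD, n = 3), followed by Hpgd at 20.6 ± 5.48. Ptgs1 (4.98 ± 2.83) and Ptges2 (4.69 ± 0.631) overlapped. Below them came Hpgds (2.58 ± 0.561) and Ptges (1.01 ± 0.346), and Alox5ap overlapped with both. Ptgs2, Pla2g4a and Alox5 were below the filter of a mean of 1 FPKM, so 7 of the 10 were tested. Hepatocyte markers summed to 32900 to 77326 FPKM and all 6 were above 0 in every liver library. In a piece of tissue, fewer cells of a type and less RNA per cell cannot be told apart. The authors' mean normalized counts were 40.7 to 1222 for the 7 tested genes and 3.18 to 20.8 for the others.

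**Figure D3:**
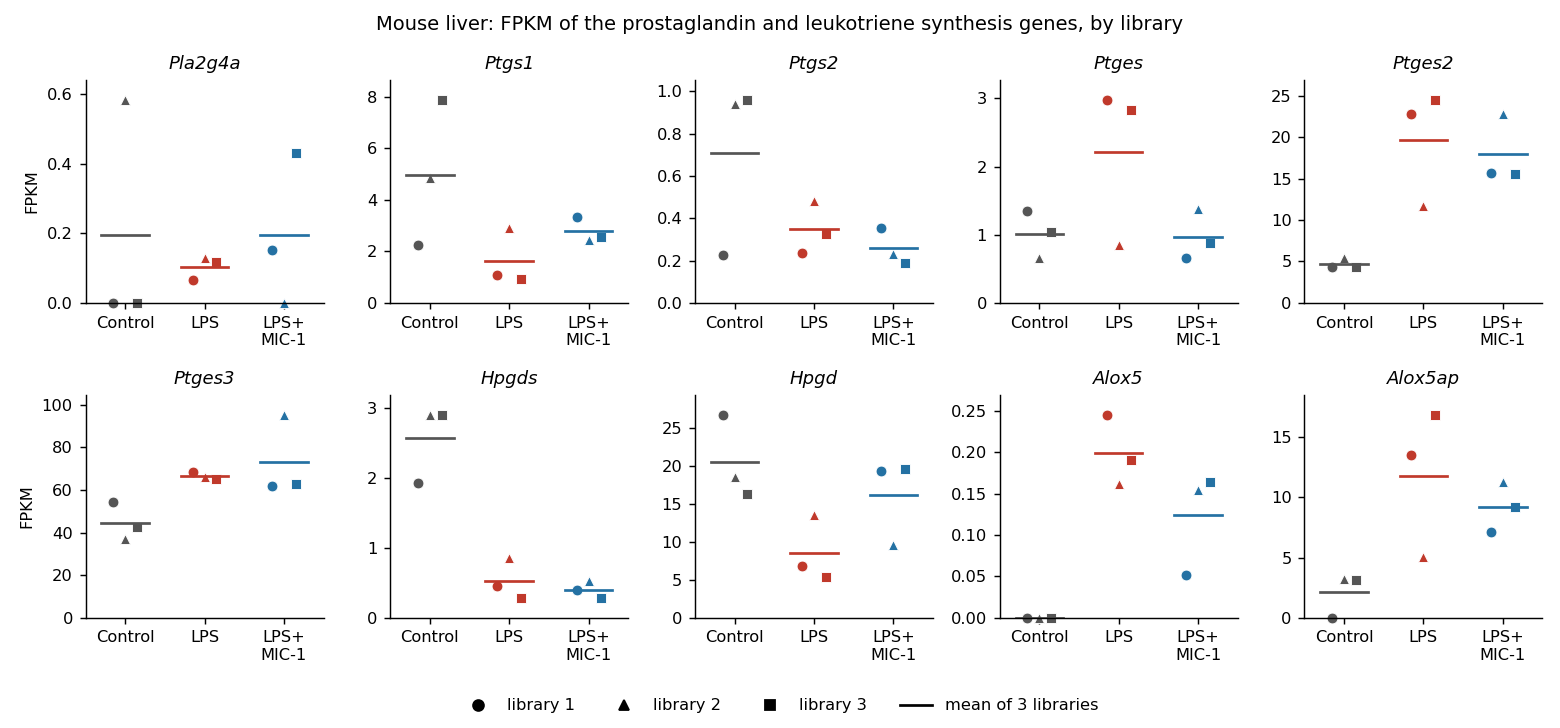
Each panel shows the FPKM of 1 gene (vertical axis, from 0, a scale of its own) in the control, LPS and LPS+MIC-1 liver libraries, with symbols for the library number and lines for the mean of 3 libraries. Ptges2 is higher and Hpgds lower in all LPS and LPS+MIC-1 libraries than in any control, and Ptgs2 stays below 1 FPKM in all 9.

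Between LPS and control 4 of the 7 tested genes were called in liver, Ptges2 and Alox5ap higher and Hpgd and Hpgds lower with LPS, where 24.6% of all genes were. Between LPS+MIC-1 and control 3 of 7 were called, Ptges2 and Alox5ap higher and Hpgds lower, against 25.2% of all genes. Between LPS+MIC-1 and LPS 0 of 7 were called and 0% of all genes (smallest adjusted p of the 7 by limma 0.997; 1 of the 7 and 364 of all genes had an unadjusted p below 0.05). The first 2 comparisons share their controls. The calls of Ptges2 and Hpgds were made in all 19 alternatives. Those of Hpgd and Alox5ap were lost in 7 to 9 of them, with adjusted p up to 0.129. The 19 include looser thresholds on the main fit, under which a call cannot be lost. They also include a rescaling by the same factor (1.02) in every library, which changes almost nothing. With each library rescaled to the same FPKM sum, the all-gene median Log2FC went from 0.15 to -0.18 between LPS and control and from 0.15 to -0.43 with LPS+MIC-1 against control, and Ptges2 (1.56 and 1.2) and Hpgds (-1.91 and -2.20) kept their directions and calls, while Alox5ap lost its calls (2.27, adjusted p = 0.0634, and 1.79, adjusted p = 0.117).

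The cyclooxygenases were low. Ptgs2 read 0.227, 0.939 and 0.958 FPKM in the controls, 0.234, 0.483 and 0.324 with LPS, and 0.354, 0.231 and 0.187 when MIC-1 was given too, with overlapping ranges, and was not tested. Ptgs1 read 2.23, 4.83 and 7.88 FPKM in the controls, 1.09, 2.89 and 0.908 with LPS, and 3.33, 2.46 and 2.57 when MIC-1 was given too. The groups overlapped, and the Log2FC of -1.33 between LPS and control (SE 0.46, adjusted p = 0.0505) lay just outside the threshold. Without liver LPS library 2 it was called (Log2FC -1.73, adjusted p = 0.0146). Pla2g4a was listed at 0 in 3 of the 9 libraries and did not exceed 0.582 FPKM.

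Ptges2 had the smallest adjusted p of the 7 genes in both comparisons with control. It read 4.30, 5.42 and 4.35 FPKM in the controls, 22.8, 11.7 and 24.5 with LPS, and 15.7, 22.8 and 15.5 when MIC-1 was given too. All treated libraries stood above the controls, and LPS and LPS+MIC-1 overlapped. It rose 4.19-fold with LPS (Log2FC 1.89, SE 0.30, adjusted p = 0.00405) and was 3.84-fold above control with LPS+MIC-1 (Log2FC 1.82, SE 0.30, adjusted p = 0.00389), and between LPS+MIC-1 and LPS the Log2FC was -0.08 (95% interval -0.75 to 0.60). Ptges3 read 54.3, 36.9 and 42.7 FPKM in the controls, 68.3, 66.0 and 65.4 with LPS, and 61.9, 95.3 and 62.8 when MIC-1 was given too, above the controls in every treated library, with Log2FC of 0.59 (adjusted p = 0.0694) and 0.70 (adjusted p = 0.0393) against control that were under the fold of a call. With each library rescaled to the same FPKM sum these came down to 0.23 (adjusted p = 0.433) and 0.0493 (adjusted p = 0.872). Ptges read 1.34, 0.654 and 1.03 FPKM in the controls, 2.98, 0.843 and 2.83 with LPS, and 0.654, 1.37 and 0.879 when MIC-1 was given too. LPS library 2 lay among the controls, and the Log2FC was 0.75 between LPS and control (adjusted p = 0.179) and -0.79 between LPS+MIC-1 and LPS (adjusted p = 0.997). Without LPS library 2 the first was 1.2 (adjusted p = 0.0145).

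Hpgds read 1.93, 2.91 and 2.90 FPKM in the controls, 0.454, 0.854 and 0.283 with LPS, and 0.397, 0.526 and 0.279 when MIC-1 was given too. The controls stood above all other libraries, and the treated groups overlapped. It fell to 0.206 of the control with LPS (Log2FC -1.60, SE 0.30, adjusted p = 0.00723) and to 0.155 with LPS+MIC-1 (Log2FC -1.76, SE 0.30, adjusted p = 0.00465). The scale understates this change, since both treated groups were near the 0.5 FPKM that was added. Hpgd read 26.8, 18.6 and 16.3 FPKM in the controls, 6.82, 13.5 and 5.41 with LPS, and 19.3, 9.57 and 19.6 when MIC-1 was given too. It fell with LPS to 0.417 of the control (Log2FC -1.29, SE 0.39, adjusted p = 0.0354), with no overlap. This call was lost without any 1 control library and without LPS library 1 or 3 (adjusted p = 0.0622 to 0.129). With LPS+MIC-1 libraries 1 and 3 lay in the control range and library 2, which stood apart in its group, in the LPS range. The Log2FC against LPS was 0.91 (SE 0.39, unadjusted p = 0.0472 by limma, adjusted p = 0.997), higher than every LPS library in 2 of 3 libraries, and this is reported as not passing.

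The leukotriene genes were low in control liver. Alox5 was listed at 0 in all 3 control libraries and read 0.245, 0.162 and 0.190 FPKM with LPS, and 0.0518, 0.155 and 0.164 when MIC-1 was given too, which was under the filter. Alox5ap was listed at 0 in control library 1 and read 3.19 and 3.13 FPKM in the other two, 13.5, 5.05 and 16.9 with LPS, and 7.14, 11.3 and 9.21 when MIC-1 was given too. Every treated library stood above the controls. The Log2FC was 2.55 with LPS (SE 0.76, adjusted p = 0.0331) and 2.34 with LPS+MIC-1 (SE 0.76, adjusted p = 0.042) against control, both close to the threshold, and it was -0.21 between LPS+MIC-1 and LPS (95% interval -1.95 to 1.53). The first call was lost without LPS library 1, LPS library 3 or LPS+MIC-1 library 3 (adjusted p = 0.0513 to 0.116), and the other without LPS library 1 or 3 or any 1 LPS+MIC-1 library (adjusted p = 0.0522 to 0.102). The sizes moved as well when 1 library was left out, from 1.59 to 3.05 and from 1.39 to 2.83, and both were lowest without control library 1, where Alox5ap is listed at 0. No mean and SD are given for the controls because of the value listed at 0.

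**Figure D4:**
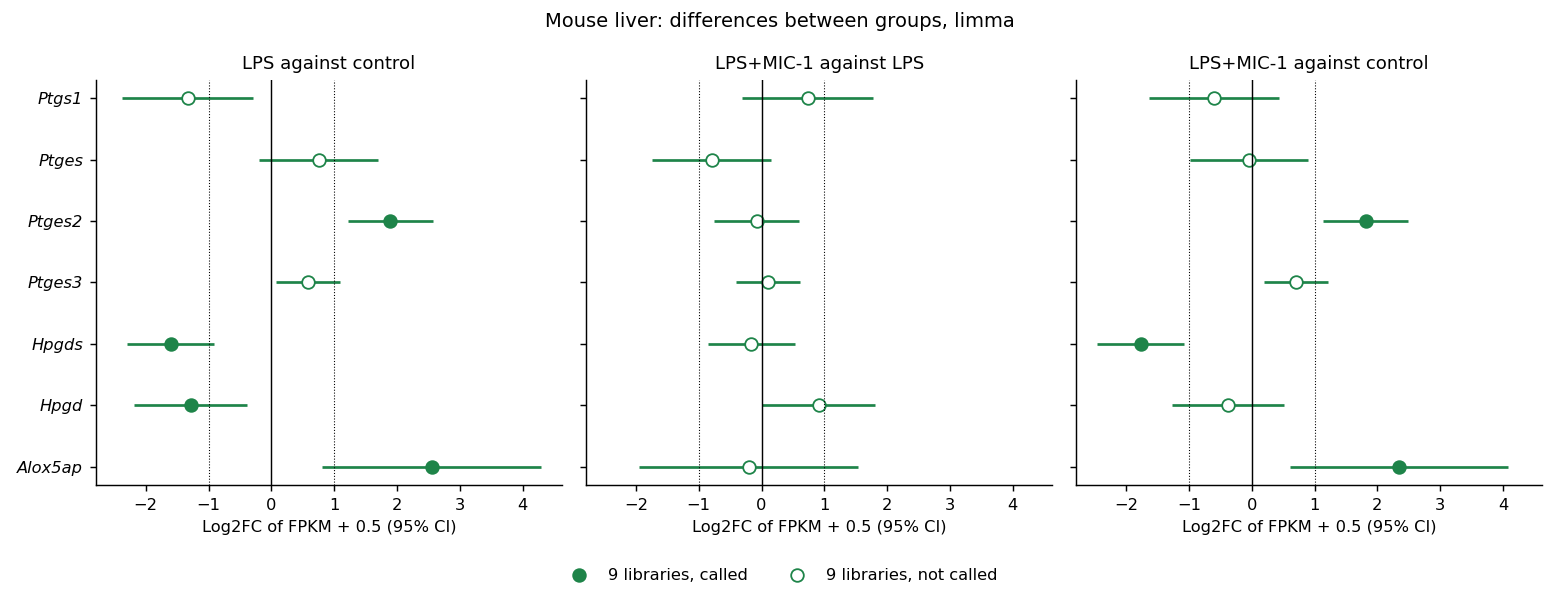
Points give the Log2FC of FPKM + 0.5 of the 7 tested genes in the 3 liver comparisons with 95% intervals over 9 libraries; filled points are calls, and dotted lines mark a Log2FC of 1 and -1. The left and right panels have the same 3 genes called in the same directions, Hpgd is called in the left panel alone, and no point is filled in the middle panel.

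Some markers of other cells also differed between the liver groups. The summed neutrophil markers (9 in the table), cells rich in Alox5ap, were 37.0 to 52.4 FPKM in the control livers, 351 to 449 with LPS, and 192 to 463 when MIC-1 was given too, where 3 to 7 of the 9 were above 0 in the controls and 8 or 9 in the treated libraries. The list did not move as 1, since S100a8 went from 2.13 to 7.98 FPKM in the controls to 141 to 339 in the treated livers, while Cxcr2, most of the control sum, went from 26.5 to 42.6 down to 3.59 to 10.1 FPKM, and Csf3r was listed at 0 in 6 of the 9 libraries. LPS+MIC-1 library 2 had a neutrophil sum of 463 FPKM beside 192 and 205 in the other two. The summed macrophage markers were 19.9 to 38.5, 48.3 to 57.9 and 32.2 to 73.0 FPKM, with 4 or 5 of 5 above 0, and Emr1, a defining marker, was listed at 0 in 5 of the 9 liver libraries. The summed monocyte markers were 0.943 to 2.23, 8.49 to 41.3 and 13.9 to 24.2 FPKM. The Kupffer cell markers summed to 102 to 112, 90.1 to 110 and 83.0 to 177 FPKM, with all 6 above 0 in every library, but they did not move as a list: Clec4f was 13.0 to 30.1 FPKM in the controls, 2.85 to 6.32 with LPS, and 4.33 to 4.83 when MIC-1 was given too, whereas Marco was 2.18 to 6.79, 23.1 to 40.4 and 38.4 to 75.6 FPKM. Beside Hpgds, which is made by mast cells, T helper cells and resident macrophages, the summed T cell markers were 10.3 to 16.1, 2.83 to 6.10 and 2.53 to 3.68 FPKM, with all 4 above 0. Cd3d alone (9.16 to 13.1 FPKM in the controls and 0.886 to 5.17 in the treated livers) was without overlap, and Cd3e, Cd3g and Lat overlapped between controls and treated livers. Of 6 mast cell and basophil markers at most 4 were above 0 in a library, and Cpa3 was listed at 0 in all 9. The part of these cells in the differences of Alox5ap and Hpgds was not tested.

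**Figure D5:**
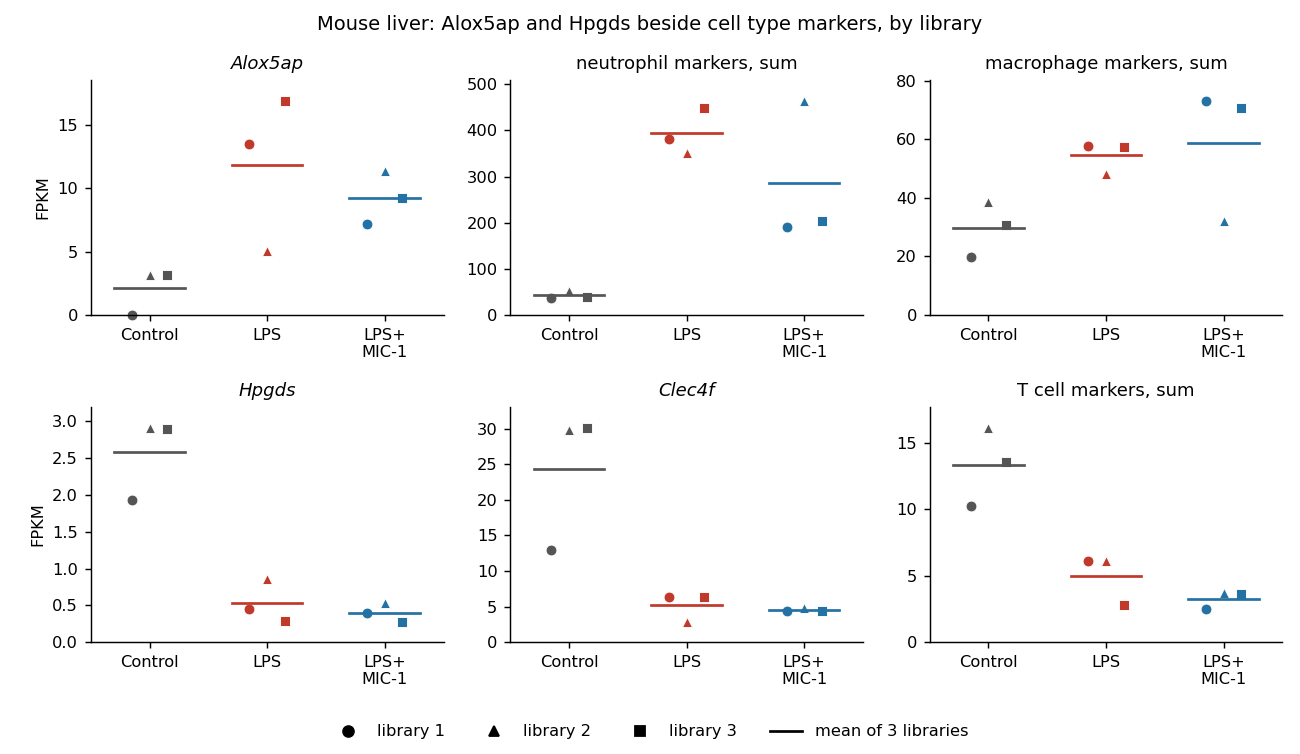
Panels show, by liver library, the FPKM (vertical axis, from 0, a scale of its own) of Alox5ap and Hpgds beside the summed neutrophil, macrophage and T cell markers and the Kupffer cell marker Clec4f; symbols mark the library number and lines the mean of 3 libraries. Alox5ap and the neutrophil sum are higher, and Hpgds, Clec4f and the T cell sum lower, in every treated library than in any control, the neutrophil sum through genes such as S100a8 and the T cell sum through Cd3d. Clec4f is 1 of 6 Kupffer cell markers and does not stand for the list. The sum of the 6, not drawn, overlapped between controls and treated livers, and Marco was higher in every treated library.

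Of the 56 other pathway genes 29 were tested in liver. Between LPS and control 11 were called (5 higher, 6 lower), where 24.6% of all genes were, between LPS+MIC-1 and control 13 (6 higher, 7 lower), where 25.2% were, and 0 for LPS+MIC-1 against LPS, where 2 of 29 stood at an unadjusted p below 0.05. Their median Log2FC between LPS and control was -0.14 and that between LPS+MIC-1 and control 0.17, where that of all genes was 0.15 in both. Mgst3 read 113 to 123 FPKM in the controls, 8.19 to 18.6 with LPS, and 10.7 to 14.4 when MIC-1 was given too (Log2FC -3.19 with LPS, SE 0.28, adjusted p = 0.000432). Ptgds, the prostaglandin D synthase of many tissues, read 23.2 to 30.4, 2.27 to 3.15 and 0.677 to 2.03 FPKM (Log2FC -3.14 with LPS, SE 0.28, adjusted p = 0.000456), so both prostaglandin D synthase genes were lower with LPS. Faah and Mgll, hydrolases that yield arachidonic acid from endocannabinoids, fell as well (Log2FC -2.46 and -1.26 with LPS, adjusted p = 0.0116 and 0.0357).

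Pla2g12a, a secreted phospholipase, rose from 7.56 to 26.5 FPKM with LPS (Log2FC 1.82, adjusted p = 0.0258), and Pla2g15 was listed at 0 in all 3 controls and read 1.47 to 4.47 FPKM with LPS, and 0.668 to 3.33 when MIC-1 was given too. Ltb4r1, the high-affinity leukotriene B receptor, rose from 1.1 to 3.74 FPKM (Log2FC 1.39, SE 0.25, adjusted p = 0.00615), Cotl1, a partner protein of the lipoxygenase, from 7.86 to 19.4 FPKM (Log2FC 1.24, adjusted p = 0.00517) and Cyp4f18, which breaks leukotriene B down, from 0.567 to 2.52 FPKM (Log2FC 1.56, adjusted p = 0.0173). Alox8, a lipoxygenase, and Pla2g2d, a secreted phospholipase, were called lower with LPS (Log2FC -1.20 and -1.10) and with LPS+MIC-1 (-1.31 and -1.22). Alox12, another lipoxygenase, was called lower with LPS+MIC-1 (Log2FC -1.06, adjusted p = 0.0261) and stood at -0.67 with LPS (adjusted p = 0.11), and Akr1b3, an aldo-keto reductase, was called higher with LPS+MIC-1 (Log2FC 1.01, adjusted p = 0.00815) and stood at 0.94 with LPS. The 5 genes most like the low Ptgs2 over the 9 liver libraries were Ints8, Dock9, Dhx16, Ubr4 and Phrf1, with Pearson's r of 0.958 to 0.972, also over 3 treatments.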

How the data were processed

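The reads had been sequenced at BGI. Kallisto 0.45.0 pseudoaligned them to RefSeq transcripts of mm9, tximport gave gene totals, and the authors deposited 1 table per tissue of FPKM that DESeq2 1.20.0 had scaled between libraries by size factors. The deposited comparison tables hold the authors' log2 fold changes, standard errors, Wald scores and p-values, which were not used, and a mean normalized count over libraries, printed as the authors' mean count to show depth. Library read totals were not used here. All columns were matched to a group by name, with 0 left over.

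Each table was fitted alone in R 4.3.3 with limma 3.58.1 (lmFit, contrasts, eBayes with trend) on log2(FPKM + 0.5), genes with mean FPKM above 1, 3 groups in 1 fit, Benjamini-Hochberg adjustment over all genes tested (9905 and 10147). The members and gene lists were chosen with earlier results of these data known. All 10 members are named, as are the 5 genes most like Ptgs2. Other pathway genes called in liver are all named, whereas only some of those called in macrophages are. Ptgdr2 and Fam213b were matched through older symbols, and 64 of 66 markers were in the tables. The fit was tested on simulated data, whose macrophage spread was taken from the 8 libraries without LPS library 2. The wider spread of the macrophage fit over 9 libraries was not simulated. Python 3.11.15 drew the figures with matplotlib 3.10.9.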

Additional observations from a re-analysis of the deposited data

Results flagged for a closer look

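In 3 comparisons all treated macrophage libraries read on one side of the range of the macrophage controls and all treated liver libraries on the other side of the liver controls. Separate ranges were common, at 33.3% of all genes with LPS and 66.4% with LPS+MIC-1 in macrophages, and at 45.0% and 54.6% in liver. The difference between the tissues was not tested, and their tables were normalized separately. Ptges3 was at 0.507 of the control with LPS in macrophages, where LPS library 2 read 195 FPKM beside a lowest control of 199, and at 0.345 without that library, and it was at 1.49 in liver. With LPS+MIC-1 Ptges3 was at 0.634 of the control in macrophages and at 1.64 in liver. None of these 4 Ptges3 differences was called over the 9 libraries, and the liver Log2FC came down to 0.23 with LPS and 0.0493 with LPS+MIC-1 when libraries were rescaled to the same FPKM sum. Hpgds was at 1.95 of the control with LPS+MIC-1 in macrophages, under the fold of a call, and at 0.155 in liver. Groups of 3 libraries were too small for the search for single deviating libraries.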

How the results depend on the processing

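No paired analysis was possible because the columns carry no replicate numbers, so the libraries of different groups cannot be matched. Calls over all genes are given in the order LPS against control, LPS+MIC-1 against LPS and LPS+MIC-1 against control. In macrophages they were 0, 383 and 554. Leaving out 1 library at a time gave 0 to 3386, 109 to 2310 and 141 to 1560, with the highest counts without LPS library 2. An alternative chosen after seeing the data, the same FPKM sum without LPS library 2, gave 5064, 3856 and 1723. Fitting only the 2 groups compared gave 5 and 1541 in the last 2, averaging libraries 1 and 3 gave 0 and 0, no minimum Log2FC gave 617 and 866, and an adjusted p below 0.05 gave 823 and 1172. With the same FPKM sum the share of higher calls moved from 53.3% to 86.0% and from 58.5% to 78.0%, and without LPS library 2 from 47.5% to 9.81%, 48.5% to 93.0% and 47.9% to 34.5%. In liver the calls were 2493, 0 and 2560. Leaving out 1 library gave 1227 to 3510, 0 to 35 and 1749 to 3111, with the 35 without LPS library 2. LPS+MIC-1 against LPS had 1 call with a pseudocount of 1, 2 with no filter, 1 with no trend and 100 at an unadjusted p below 0.05. The same FPKM sum moved the share of higher calls from 54.4% to 30.1% and from 54.5% to 17.2%.

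Of the called macrophage results, Ptgs1 between LPS+MIC-1 and LPS was lost in 7 of its alternatives (adjusted p up to 0.164), Ptgs1 between LPS+MIC-1 and control in 3 (up to 0.106), and Ptgs2 between LPS+MIC-1 and control in 8 (up to 0.17). The alternatives include looser thresholds on the main fit, under which a call cannot be lost, and a rescaling by the same factor in every library. Differences that were not called changed sign as follows. With the same FPKM sum, macrophage Log2FC between LPS and control became -0.16 for Ptgs1, -0.63 for Hpgds and -0.17 for Alox5ap, or -0.60, -0.97 and -0.34 without LPS library 2 as well. Between LPS+MIC-1 and LPS, Ptges became 0.25, and with libraries 1 and 3 averaged Ptges was 0.44 and Ptges2 -0.0703. Ptges3 in liver became -0.18 between LPS+MIC-1 and LPS. Leaving out 1 library at a time, the Log2FC between LPS+MIC-1 and LPS ranged in macrophages from -1.68 to 0.49 for Ptges, from -0.0827 to 0.091 for Ptges2 and from -0.0611 to 0.16 for Alox5ap, and in liver from -0.41 to 0.11 for Ptges2, from -0.0934 to 0.22 for Ptges3, from -0.34 to 0.0507 for Hpgds and from -0.70 to 0.12 for Alox5ap. Against control it ranged from -0.0143 to 0.061 for Hpgds with LPS in macrophages and from -0.23 to 0.12 for Ptges with LPS+MIC-1 in liver. The cause of these changes was not tested. Values with few counts behind them limit what can be seen of Hpgd in macrophages and of Alox5, Pla2g4a and Ptgs2 in liver.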

Other observations

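Summed markers of cell types with no place in the comparisons above are also given for liver. The summed cholangiocyte markers were 9.63 to 11.6 FPKM in the controls, 16.7 to 30.8 with LPS and 21.2 to 27.6 with LPS+MIC-1, with no overlap between the controls and the treated livers. The list did not move together. Sox9 carried the rise, from 6.12 to 7.39 FPKM in the controls to 13.7 to 28.7 in the treated livers. Krt7 went the other way, from 1.82 to 2.25 down to 0.176 to 1.62 FPKM, and Krt19 and Epcam overlapped. The summed B cell markers were 3.13 to 3.88, 0.26 to 1.25 and 0.328 to 1.8 FPKM, and the summed stellate cell markers 12.9 to 15.4, 4.48 to 15.8 and 8.17 to 9.63 FPKM. The summed platelet markers overlapped between all liver groups, at 10.3 to 27.2, 10.3 to 27.1 and 6.39 to 16.1 FPKM, as did the summed endothelial markers at 40.6 to 46.6, 28.6 to 41.7 and 38.1 to 42.8 FPKM. Within the endothelial list, Clec4g went from 23.6 to 27.5 FPKM in the controls down to 0.824 to 15.9 in the treated livers. Lyve1 went from 7.28 to 10.2 up to 14.4 to 32.4 FPKM, and Stab2, Pecam1 and Kdr overlapped. The sums of mast cell and basophil markers were 0.523 to 2.52, 0.507 to 0.88 and 0.592 to 1.31 FPKM. These are sums of a few transcripts in whole tissue and were not tested.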
